A study of Homo sapiens with 6 samples.

Results

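Autophagy genes encode the machinery that wraps cytoplasm in a membrane and delivers it to lysosomes. They were followed in NB4 cells, a human acute promyelocytic leukaemia line with the PML-RARA fusion, as all-trans retinoic acid (ATRA), a ligand of retinoic acid receptors, was applied. The 35 genes were taken by name from the core pathway, and each was represented by its brightest 1-gene probe set (by mean of the 6 arrays). All 35 had such a probe set, out of 19775 genes in all. Genes were kept if they reached 3.66, the overall median, on at least 1 array, which left 34 members among 13594 genes. ULK2 was the gene below it, at 2.75 to 3.07 on the 6 arrays, and has no comparison.

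Untreated NB4 cells (0 h) were set beside cells kept in ATRA at 1e-06 M for 4, 12, 24, 48 or 72 h. Each time had 1 array, and there were no replicates. Time in ATRA and time in culture cannot be told apart. All values are log2 probe set summaries, and a level says nothing against the level of another probe set. The arrays measured pools of cells, so fewer cells with a transcript and less transcript per cell cannot be told apart either.

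Autophagy starts with the ULK kinase complex and a lipid kinase complex around PIK3C3, which marks the membrane with a phosphoinositide. WIPI proteins read that mark, ATG2 proteins feed in lipid, and a ubiquitin-like conjugation system attaches ATG8 proteins (the LC3 and GABARAP families) to the membrane, where receptors such as SQSTM1 bring in cargo. TFEB and TFE3 are transcription factors that can switch on lysosomal and autophagy genes. In promyelocytic leukaemia cells autophagy is known as a route of PML-RARA breakdown and as a process that goes along with granulocytic maturation. The arrays measured transcripts, and neither protein nor autophagic flux was measured.

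Promoters of 4 of the members with a rising trend, SQSTM1, WIPI1, ATG2A and TFE3, are shown here as examples. Their courses over time differed, and ATG7, GABARAP and NBR1, also called rising, are not shown. That of ATG3, which had no call, is shown because it holds the E-box core that TFEB and TFE3 bind. The windows run from 250 bases before to 50 bases after the annotated start, are written 5′ to 3′ on the gene's strand, and come from RefSeq (GRCh38.p14). RefSeq windows were matched for 33 of the 35 genes, all but RB1CC1 and UVRAG, using the first window listed for each gene. Capitals mark AGGTCA, the retinoid receptor half-site, in SQSTM1. In WIPI1, ATG2A and TFE3 they mark CCGCCC, a GC box, and in ATG3 they mark CACGTG, that E-box core. Each motif was searched on both strands, so a match may read as its reverse complement.
SQSTM1, chr5:179806143-179806442, plus strand: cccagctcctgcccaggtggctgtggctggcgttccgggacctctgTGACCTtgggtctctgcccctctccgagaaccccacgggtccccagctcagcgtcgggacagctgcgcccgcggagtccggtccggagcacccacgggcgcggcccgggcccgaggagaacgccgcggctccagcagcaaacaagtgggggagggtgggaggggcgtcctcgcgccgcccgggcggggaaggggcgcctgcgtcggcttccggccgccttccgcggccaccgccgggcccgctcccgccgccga
WIPI1, chr17:68457447-68457746, minus strand: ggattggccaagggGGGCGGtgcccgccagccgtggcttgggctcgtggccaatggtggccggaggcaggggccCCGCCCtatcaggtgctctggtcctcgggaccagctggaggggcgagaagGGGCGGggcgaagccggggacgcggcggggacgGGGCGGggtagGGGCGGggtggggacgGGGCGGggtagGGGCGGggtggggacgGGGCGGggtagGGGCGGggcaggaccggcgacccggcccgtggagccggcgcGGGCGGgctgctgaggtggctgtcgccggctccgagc
ATG2A, chr11:64917160-64917459, minus strand: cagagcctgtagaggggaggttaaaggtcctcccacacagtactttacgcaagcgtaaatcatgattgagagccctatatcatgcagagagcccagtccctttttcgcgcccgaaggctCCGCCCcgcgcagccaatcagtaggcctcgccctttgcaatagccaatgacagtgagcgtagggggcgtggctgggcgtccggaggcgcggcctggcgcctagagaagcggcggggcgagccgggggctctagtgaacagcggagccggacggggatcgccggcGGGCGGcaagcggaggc
TFE3, chrX:49043308-49043607, minus strand: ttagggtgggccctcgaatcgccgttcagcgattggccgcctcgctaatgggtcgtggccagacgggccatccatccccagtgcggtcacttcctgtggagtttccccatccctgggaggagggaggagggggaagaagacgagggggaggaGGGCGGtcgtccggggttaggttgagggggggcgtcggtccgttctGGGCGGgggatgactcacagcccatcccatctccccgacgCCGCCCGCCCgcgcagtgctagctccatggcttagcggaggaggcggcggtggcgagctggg
ATG3, chr3:112561913-112562212, minus strand: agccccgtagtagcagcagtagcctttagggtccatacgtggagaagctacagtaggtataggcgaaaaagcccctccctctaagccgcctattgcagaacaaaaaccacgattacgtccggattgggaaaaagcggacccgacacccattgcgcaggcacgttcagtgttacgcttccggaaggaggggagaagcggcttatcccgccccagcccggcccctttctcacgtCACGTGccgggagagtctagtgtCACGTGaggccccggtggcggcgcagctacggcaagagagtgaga

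CACGTG was found in 2 of the 33 members' windows (6.06%), ATG3 with 2 matches and ATG14 with 1, against 10% of the windows of all genes kept on the arrays. The longer palindrome built around it, the CLEAR element, was in 0 of 33, against 0.764% of windows of kept genes. AGGTCA was in SQSTM1, BECN1 and PIK3R4 (9.09%, against 10.4%), and TGACNNNGC, the core of the antioxidant response element, in ATG101, CALCOCO2 and MAP1LC3B (9.09%, against 15.1%). The interferon response core was in 0 windows, against 2.79%. CCGCCC was in 23 of 33 (69.7%), against 66.7%, and WIPI1 carried 10 copies in a window of 79.7% G and C. None of the members that rose over the time course, named below, held CACGTG in this window, which says only that these letters are not there.

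The test over the whole time course asked whether a straight line through the 6 arrays, in order of time, had a slope (limma, fitted on all 13594 genes). It called 7 of the 34 autophagy genes rising, which is 20.6%, beside 8.33% of all genes. They were WIPI1, ATG2A, ATG7, GABARAP, SQSTM1, NBR1 and TFE3. WIPI1 passed the filter only through its late values, so its call is no support for the count. It called 0 falling, beside 9.86% of all genes, while 10 members had a rising slope (29.4%, beside 13.6% of all genes) and 2 a falling slope (5.88%, beside 19.1%) at an unadjusted p under 0.05 (limma). A step or a plateau can be called too, so a call does not mean a steady climb.

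By single times, differences of 2-fold or more from the untreated array built up late. Higher members numbered 1 of 34 at 4 h (2.94%, beside 1.74% of all genes), 1 at 12 h (beside 2.3%), 2 at 24 h (5.88%, beside 3.35%), 3 at 48 h (8.82%, beside 5.83%) and 7 at 72 h (20.6%, beside 10.9%). WIPI1 is among those at 48 and 72 h. Since it passed the filter only through its late values, it is no support for these counts either. Lower members were 0 at 4, 12, 24 and 48 h, beside 1.81%, 1.93%, 1.99% and 4.49% of all genes, and 2 at 72 h (5.88%, beside 12.2%). The members' median log2 difference at the 5 times, in order, was 0.16, -0.11, 0.01, 0.06 and 0.32. Over all kept genes it was 0.03, -0.06, -0.01, -0.02 and -0.06. The members' median was therefore within 0.16 of 0 up to 48 h.

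**Figure D1:**
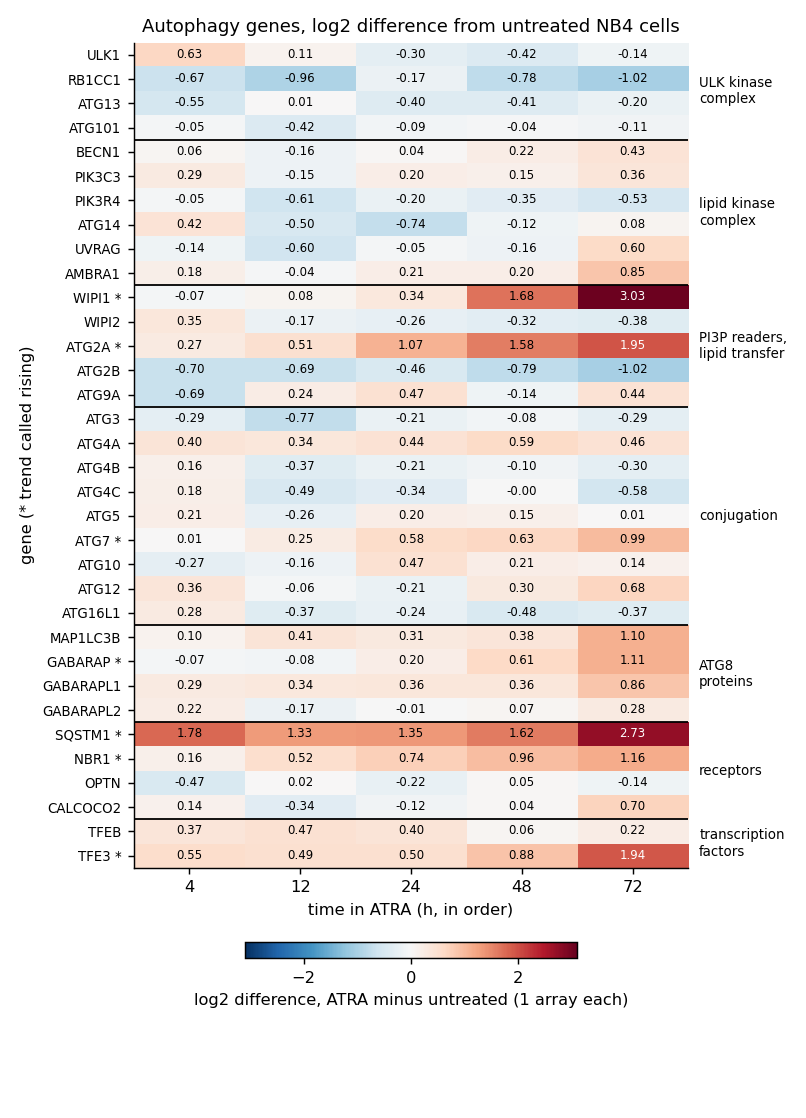
Log2 difference from the untreated array (colour and printed number) for the 34 autophagy genes kept, in rows grouped by role, at 4, 12, 24, 48 and 72 h of ATRA (columns), with 1 array per time; an asterisk marks a rising trend. SQSTM1 is high in all 5 columns, WIPI1 and ATG2A climb to 3.03 and 1.95 at 72 h, and RB1CC1 and ATG2B are the rows at -1.02 at 72 h.

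**Figure D2:**
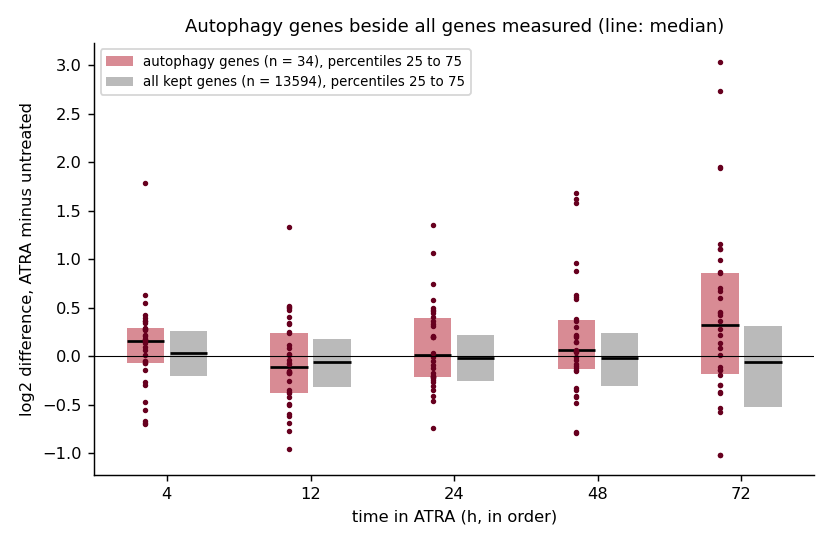
Log2 difference from the untreated array (y axis) at each time of ATRA (x axis), with points for the 34 autophagy genes, bars from percentile 25 to 75 and a line at the median, beside the same bars for all 13594 genes kept. The members' median leaves that of all genes most at 72 h, at 0.32 against -0.06.

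Technical values moved between the arrays as well. The spiked bioC control lay at 8.01 and 8.11 on the 0 and 12 h arrays and between 6.88 and 7.17 on the 4, 24, 48 and 72 h arrays. The 3' minus 5' signal of GAPDH, a sign of RNA quality, split the arrays the same way, at 0.062 and 0.017 on the 0 and 12 h arrays and at 0.127, 0.109, 0.130 and 0.214 on the 4, 24, 48 and 72 h arrays. That of ACTB lay between 0.13 and 0.26 and array medians between 3.64 and 3.69, without that split. The part of RNA quality in the results was not tested. The members moved with the 12 h array too: 12 of 34 were lowest there, against 15% of all kept genes, and 15 of 34 took their largest step between neighbouring arrays from 4 to 12 h, against 23.6% of all kept genes. With bioC as a covariate limma called 4 members rising (ATG2A, WIPI1, ATG7 and NBR1, beside 4.94% of all genes) and 0 falling (beside 9.57%). With the 0 and 12 h arrays set against the others it called 2 rising (ATG2A and NBR1, beside 3.85%) and 0 falling (beside 6.44%). Within the 4, 24, 48 and 72 h arrays it called ATG2A alone of the members rising (beside 2.2%) and 0 falling (beside 0.942%). Without the 72 h array it called 2 rising, ATG2A and NBR1 (beside 3.24%), and 0 falling (beside 1.98%).

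Of the promyelocyte markers, MPO lay between 10.92 and 12.90 and fell over the time course, as did CTSG. PRTN3 lay between 10.76 and 11.65 and AZU1 between 9.05 and 9.97, while ELANE stayed below the filter and CD33 had no 1-gene probe set. Of 7 monocyte and macrophage markers, CD14, MRC1, MSR1, VCAN, C1QA and C1QB stayed below the filter on all 6 arrays. CD163 stood at 4.89 at 72 h, against 3.35 in untreated cells. Of the B cell markers MS4A1 stayed below the filter, PAX5 lay between 4.40 and 5.02 without a call, CD79A rose and CD79B fell over the time course. The part of CD163, CD79A and CD79B in the results was not tested.

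None of the 4 kept genes of the ULK kinase complex, which starts autophagy, was called by limma, also at an unadjusted p under 0.05 (0 of 4). Of all genes 8.33% were called rising and 9.86% falling, or 13.6% and 19.1% at the unadjusted p. With so few genes 0 of 4 does not set the group apart. ULK1, the kinase, was at 5.75 in untreated cells and at 6.38, 5.86, 5.45, 5.33 and 5.61 after 4, 12, 24, 48 and 72 h, so its highest value was the 4 h one. RB1CC1, the large scaffold of the complex also called FIP200, was at 8.31 in untreated cells and at 7.64, 7.36, 8.14, 7.54 and 7.30 at the 5 later times. It was lower on every ATRA array but came close to its untreated level at 24 h, and at 72 h it was 2.03-fold lower. Both of its kept probe sets were lower at 72 h, with differences of -1.02 and -1.37, yet its trend was not called (limma adjusted p = 0.276). ATG13 and ATG101, which link the kinase to the scaffold, differed by -0.20 and -0.11 at 72 h, and the other 2 kept probe sets of ATG13 were higher by 0.19 and 0.31. The median of the 4 kept members at 72 h was -0.17, which turned positive (0.49) with the shift on all spiked controls described below and all but vanished with cyclic loess.

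Of the 6 genes of the lipid kinase complex limma called 0, beside 8.33% rising and 9.86% falling of all genes. AMBRA1 alone had a slope at an unadjusted p under 0.05 (limma), rising, which is 16.7%, beside 13.6% of all genes. With so few genes these counts do not set the group apart. PIK3C3, the catalytic subunit also called VPS34, and PIK3R4, its regulatory partner, differed by 0.36 and -0.53 at 72 h. The other kept probe set of PIK3C3 differed by -0.19. BECN1, the scaffold Beclin 1, differed by 0.43, and its 2 kept probe sets lay at 0.37 and 0.43. ATG14, the subunit that directs the complex to autophagy, lay between 4.69 at 24 h and 5.85 at 4 h, and was back within 0.08 of untreated at 72 h. UVRAG, the alternative subunit of the complex on endosomes, was at 7.13 in untreated cells, between 6.54 and 7.08 from 4 to 48 h and at 7.74 at 72 h. AMBRA1, which activates the Beclin 1 complex, lay between 6.32 and 6.57 up to 48 h and at 7.21 at 72 h, against 6.36 in untreated cells. Its 2 kept probe sets were higher at 72 h by 0.85 and 1.34. AMBRA1 therefore stood apart from untreated cells on the last array alone, while UVRAG differed by -0.60 at 12 h and by 0.60 at 72 h. Neither was called (limma adjusted p = 0.147 for AMBRA1 and 0.414 for UVRAG).

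The largest difference of all members was in WIPI1, a reader of the phosphoinositide mark. Its values were 3.50 in untreated cells and 3.44, 3.58, 3.84, 5.18 and 6.53 after 4, 12, 24, 48 and 72 h. It stayed near or below the filter up to 24 h and climbed by 1.34 and 1.35 over the next 2 steps. At 72 h it was at least 7.30-fold higher, with the untreated value set to the filter, and it rose by 0.59 ± 0.12 per step of time (log2, SE, limma adjusted p = 0.0148). The other probe set of WIPI1 was higher by 1.96 at 72 h. WIPI1 passed the filter through its late values, so its place among the measured genes and its rise are not separate facts. WIPI2, the relative that recruits ATG16L1, was at 8.95 in untreated cells, 9.29 at 4 h and 8.57 at 72 h. Its 4 kept probe sets were all lower at 72 h, with differences of -0.11 to -0.45, with no call (limma adjusted p = 0.15).

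The lipid transfer genes ATG2A and ATG2B moved apart. ATG2A was at 7.07 in untreated cells and at 7.33, 7.57, 8.14, 8.64 and 9.01 at the 5 later times, each value above the previous. At 72 h it was 3.85-fold higher, and it rose by 0.41 ± 0.05 per step (limma adjusted p = 0.00202), the lowest p among the members. That call was kept in all 17 alternative settings tried. However, ATG2A has 1 probe set, so the other probe set rules and filters could not change its slope, only its adjusted p. ATG2B was at 6.77 in untreated cells and at 6.07, 6.09, 6.31, 5.99 and 5.76 at the later times. Every ATRA array lay below the untreated one, with most of the gap present at 4 h, and at 72 h it was 2.02-fold lower. All 3 kept probe sets of ATG2B were lower at 72 h, with differences of -0.36 to -1.02, and the trend was not called (limma adjusted p = 0.109). ATG9A, a lipid scramblase on the vesicles that seed the membrane, swung between 5.54 at 4 h and 6.70 at 24 h and was higher by 0.44 at 72 h, against 6.23 in untreated cells.

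**Figure D3:**
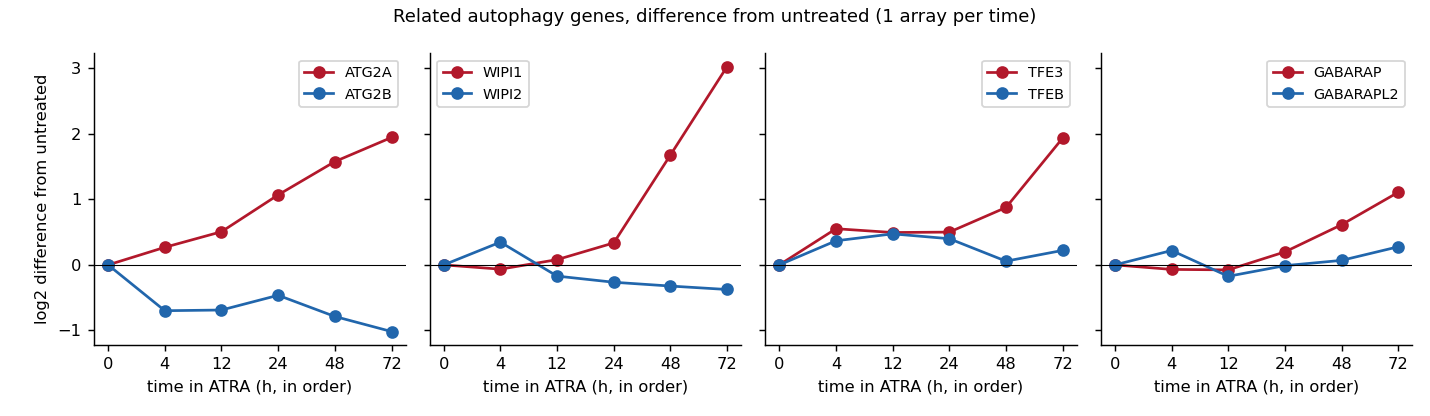
Log2 difference from the untreated array (y axis) over time in ATRA (x axis, times in order) for 4 pairs of related autophagy genes, 1 array per time. ATG2A and ATG2B part from 4 h on, and WIPI1 and WIPI2, like TFE3 and TFEB, part mainly at 48 and 72 h.

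These pairs were chosen after their values were seen, so the gaps are a description. The log2 difference of ATG2A minus ATG2B, set to 0 in untreated cells, was 0.97, 1.20, 1.53, 2.37 and 2.96 at the 5 later times. Because each gap is taken within an array, it is the same under any shift of whole arrays. That of WIPI1 minus WIPI2 was -0.41 at 4 h, 0.60 at 24 h and 3.40 at 72 h.

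Of the 9 conjugation genes limma called 1 rising, ATG7 (11.1%, beside 8.33% of all genes), and 0 falling (beside 9.86%). ATG7, the E1-like enzyme that activates both ubiquitin-like proteins of the pathway, was at 6.25 in untreated cells and at 6.26, 6.49, 6.82, 6.88 and 7.23 at the later times. The 72 h value was 1.98-fold higher, and ATG7 rose by 0.20 ± 0.04 per step (limma adjusted p = 0.0177). Its 4 kept probe sets were all higher at 72 h, by 0.41 to 1.25. ATG12, a ubiquitin-like protein that ATG7 activates, differed by 0.68 at 72 h and was higher in its 3 kept probe sets, by 0.42 to 0.78, without a called trend. ATG5, to which ATG12 is joined, differed by 0.01, and ATG16L1, which anchors that conjugate, by -0.37. The other kept probe sets of ATG5 differed by -0.08 and -0.55. Of the E2-like enzymes, ATG3 differed by -0.29 and ATG10 by 0.14, with the other kept probe sets of ATG10 at 0.01 and -0.59. The ATG4 proteases, which trim and release ATG8 proteins, differed by 0.46 (ATG4A), -0.30 (ATG4B) and -0.58 (ATG4C). The median of the group at 72 h was 0.01.

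The 4 ATG8 genes among the members were all higher at 72 h, beside 6138 of all 13594 genes. Their median was 0.98 and stayed above 0 under the 3 other scalings (0.42 to 1.65). GABARAPL2, at 0.28, did not stay higher with the shift of -0.56 described below. MAP1LC3A, an LC3 gene outside the members, was at 4.84 in untreated cells and at 4.79 at 72 h. MAP1LC3C, another, stayed below the filter. GABARAP was at 8.95 in untreated cells and at 8.88, 8.87, 9.15, 9.56 and 10.06 at the later times. It was flat to 12 h and then higher at each time, 2.16-fold at 72 h, and it rose by 0.22 ± 0.06 per step (limma adjusted p = 0.0283). MAP1LC3B, the LC3 protein most used as a mark of autophagosomes, was at 8.07 in untreated cells and at 8.17, 8.48, 8.38, 8.45 and 9.17 at the later times. It was 0.38 above untreated at 48 h and, after a last step of 0.72, 2.15-fold higher at 72 h, in both kept probe sets (1.10 and 1.22), and missed the call (limma adjusted p = 0.0549). MAP1LC3B has a near-identical copy, MAP1LC3B2, whose own probe set stayed below the filter, at 2.53 to 3.01. GABARAPL1 lay at 6.75 at 72 h, against 5.89 in untreated cells, and was higher by 0.86 and 1.62 in its 2 kept probe sets, without a call (limma adjusted p = 0.0885). GABARAPL2 differed by 0.28.

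Among the cargo receptors SQSTM1 differed earliest. SQSTM1, also called p62, binds ubiquitin and ATG8 proteins. Its values were 7.04 in untreated cells and 8.82, 8.37, 8.39, 8.66 and 9.78 after 4, 12, 24, 48 and 72 h. It was the 1 member 2-fold or more higher at 4 h, at 3.44-fold, held between 2.51- and 3.08-fold from 12 to 48 h, and stood 6.66-fold above untreated at 72 h. In its brightest probe set the course was thus a first step of 1.78, a plateau and a last step of 1.11. There 65.1% of the 72 h difference was present at 4 h. A line describes such a course poorly: it rose by 0.38 ± 0.11 per step (limma adjusted p = 0.0465), a call lost in 10 of 17 alternative settings, among them no filter on low values. Of its 4 kept probe sets 3 were higher at 72 h, by 1.62 to 2.82, and 1 lay at -0.28. The next brightest had a like course, at 5.36, 6.95, 7.02, 6.92, 6.89 and 8.18 on the 6 arrays. Another had no plateau, at 5.48, 6.77, 5.44, 6.36, 6.54 and 7.09, and so was back at its untreated level at 12 h. The probe set at -0.28 differed by -0.22 at 4 h.

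NBR1, a receptor related to SQSTM1, followed a different course. It was at 6.42 in untreated cells and at 6.58, 6.94, 7.16, 7.38 and 7.58 at the later times, each value above the previous. Its other kept probe set did not climb at every step. That was at 6.18 in untreated cells and at 6.15, 6.80, 6.48, 6.71 and 6.99 at the later times. At 72 h NBR1 was 2.23-fold higher in the brighter probe set, which rose by 0.24 ± 0.04 per step (limma adjusted p = 0.00886). With the mean of all its probe sets, including those below the filter, the slope was 0.11, still called. The 72 h difference was then 0.56. CALCOCO2, the receptor NDP52, stayed between 7.34 and 7.83 up to 48 h and lay at 8.39 at 72 h, against 7.69 in untreated cells, without a call (limma adjusted p = 0.385). The other kept probe sets of CALCOCO2 differed by 0.85 and -0.16 at 72 h. OPTN, optineurin, had low signal, 3.67 to 4.19, and differed by -0.14 at 72 h.

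TFE3 and TFEB also differed in course. TFE3 was at 7.01 in untreated cells and at 7.56, 7.50, 7.51, 7.89 and 8.95 at the later times. It was higher by about the same amount from 4 to 24 h (0.49 to 0.55) and then climbed, to 3.83-fold at 72 h. TFE3 rose by 0.30 ± 0.07 per step (limma adjusted p = 0.027), and its 3 kept probe sets were higher at 72 h, by 1.04 to 1.94. Without the 72 h array its slope was 0.17 and was not called. TFEB was at 5.28 in untreated cells and at 5.65, 5.75, 5.68, 5.34 and 5.50 at the later times, with its highest value at 12 h. The second, dimmer probe set of TFEB was higher by 1.07 at 72 h, against 0.22 in the brighter one.

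**Figure D4:**
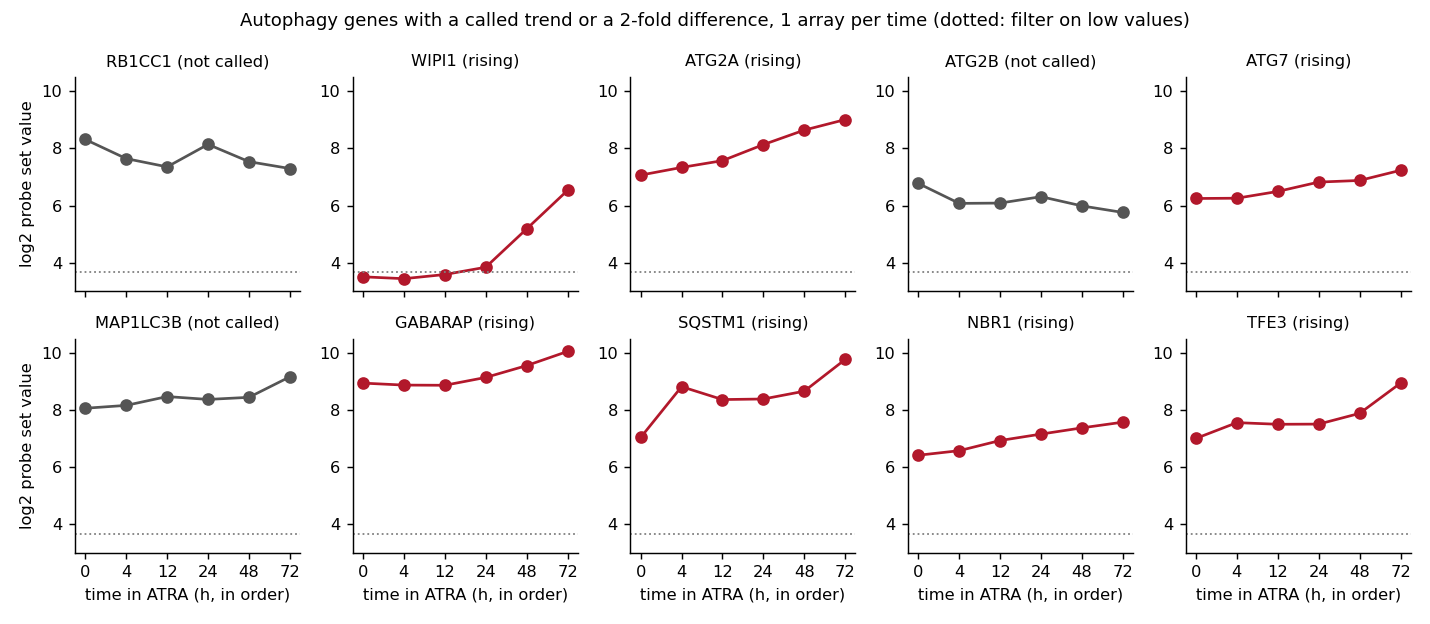
Log2 probe set value (y axis) on each array (x axis, hours in ATRA in order) for the 10 autophagy genes with a called trend or a 2-fold difference; red marks a rising trend, grey no call, and the dotted line the filter at 3.66. SQSTM1 (brightest probe set) shows a step at 4 h and another at 72 h. ATG2A and NBR1 (brightest probe set) climb at every step, and WIPI1 leaves the filter level after 24 h.

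**Figure D5:**
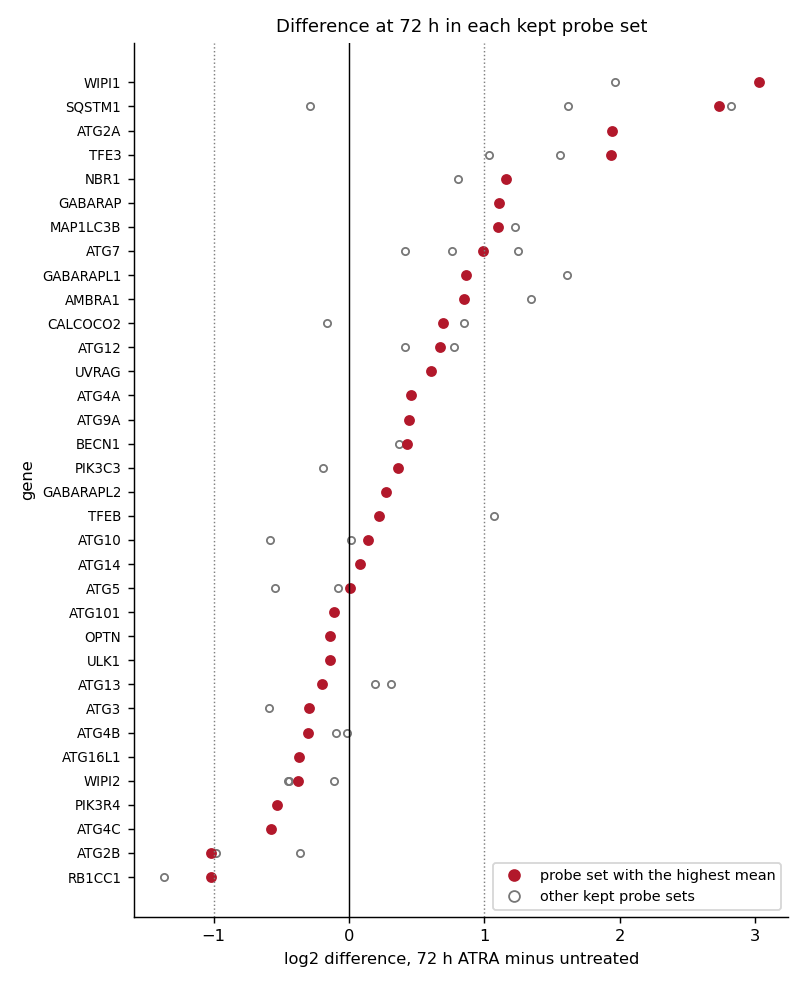
Log2 difference at 72 h against untreated (x axis) for every kept probe set of each autophagy gene (rows, ordered by difference); filled points are the probe sets with the highest mean, open points the others, and dotted lines mark 2-fold. Of 21 genes with more than 1 kept probe set, 15 have all of them on the same side of 0.

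The other 24 kept members, which had neither a call nor a 2-fold difference, lay between 3.67 and 9.48, and each varied by 0.42 to 1.20 over the 6 arrays. At 72 h 14 of them were above and 10 below the untreated value. Over all 34 members 16 had their highest value at 72 h, against 23.9% of all kept genes. From 48 to 72 h 22 of 34 members were higher on the later array (64.7%), against 44.1% of all kept genes. WIPI1 is in both counts and, having passed the filter only through its late values, is no support for them.

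The scaling of the arrays sets how many members count as higher or lower. Equalising the median of all 18 spiked hybridisation controls adds 0.66 to every 72 h difference, and equalising their mean without bioC changes it by -0.56. With the first shift 17 members were 2-fold or more higher and 0 lower at 72 h (beside 23.8% and 3.65% of all genes), and with the second 4 and 4 (beside 6.68% and 28.3%). The trend test called 4 members rising and 0 falling with the first shift (beside 7.64% and 0.353% of all genes), and 4 rising and 5 falling with the second (beside 5.41% and 24.0%). The median of all genes at 72 h moved to 0.60 and -0.62, and that of the members to 0.98 and -0.24. Relative to all genes the members' median was 0.38 higher in the values as deposited. Either shift moves all genes of an array alike, so it could not change that figure. With cyclic loess, which could, the members' median was 0.53 higher. WIPI1, ATG2A, SQSTM1 and TFE3 were 2-fold or more higher under both shifts, of which WIPI1 passed the filter only through its late values.

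Genes around the core pathway were read from lists that complete it. Of 12 kept further core genes limma called 3 rising (25%, beside 8.33% of all genes) and 0 falling (beside 9.86%). At an unadjusted p under 0.05 these were 6 and 1, which is 50% and 8.33% of the list, beside 13.6% and 19.1% of all genes. ATG16L2, a relative of ATG16L1, was higher by 1.52 at 72 h, NRBF2, a subunit of the lipid kinase complex, by 1.28, and WDR45, of the WIPI family, by 0.98. RUBCN (Rubicon), an inhibitor of the lipid kinase complex, was at 6.32 in untreated cells and at 6.36, 5.85, 6.11, 7.08 and 8.99 at the later times. That made it 6.35-fold higher at 72 h, the largest difference of that list, without a called trend (limma adjusted p = 0.0823). VMP1 and SH3GLB1 were higher by 1.93 and 1.54 at 72 h without a call. EI24 went the other way, differing by -1.14 at 72 h, also without a call (limma adjusted p = 0.0515). At that time 5 of the 12 were 2-fold or more higher and 1, EI24, lower, beside 10.9% and 12.2% of all genes.

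Of 16 genes of autophagosome and lysosome fusion limma called 5 rising and 0 falling (7 and 1 at an unadjusted p under 0.05, or 43.8% and 6.25%, beside 13.6% and 19.1% of all genes). TECPR1, a tether of autophagosomes and lysosomes, rose by 0.41 ± 0.04 per step (limma adjusted p = 0.00183) and was 4.24-fold higher at 72 h. PLEKHM1, an adaptor between RAB7 and ATG8 proteins, was higher by 1.66, the lysosomal membrane protein LAMP2 by 1.42, the SNARE STX17 by 1.27 and VPS41 by 0.82, all with called trends. LAMP1 differed by 0.06. The 5 called are 31.2% of the list, beside 8.33% of all genes called rising.

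Of 17 kept further receptor and mitophagy genes limma called 1 rising (5.88%, beside 8.33% of all genes) and 0 falling (beside 9.86%). At an unadjusted p under 0.05 (limma) these were 5 and 1 (29.4% and 5.88%, beside 13.6% and 19.1%). The 1 called was WDFY3, a large adaptor of selective autophagy, higher by 2.15 at 72 h (limma adjusted p = 0.0415). TBK1, the kinase that acts on OPTN and SQSTM1, was higher by 1.20 without a call, and CCPG1 and CALCOCO1 by 1.39 and 1.33. Of 23 kept mTORC1 and nutrient sensing genes limma called 1 each way, which is 4.35%, beside 8.33% rising and 9.86% falling of all genes. At an unadjusted p under 0.05 (limma) 4 had a rising and 1 a falling slope (17.4% and 4.35%, beside 13.6% and 19.1%). The 1 called rising was the lysosomal scaffold LAMTOR2 (0.73 at 72 h). The 1 called falling was MLST8, a subunit of the mTOR kinase complexes (-1.52). FNIP2, a partner of folliculin, was higher by 2.08 at 72 h, SESN2, a leucine sensor, by 1.17 and LAMTOR3, of the same scaffold as LAMTOR2, by 1.13, each without a call. DDIT4, an mTORC1 inhibitor, was higher by 1.04, 1.66 and 1.06 at 4, 12 and 24 h and differed by -0.10 at 72 h. Limma called 0 of 7 kept AMPK genes, beside 8.33% rising and 9.86% falling of all genes. At an unadjusted p under 0.05 (limma) 1 had a falling slope (14.3%, beside 19.1%). PRKAB2, a regulatory subunit, stood at 4.81 at 72 h, against 6.09 in untreated cells. Of 7 other transcription factors of the pathway limma called 1 rising (14.3%, beside 8.33% of all genes) and 0 falling (beside 9.86%). TFEC, a relative of TFEB and TFE3, was the 1 called (limma adjusted p = 0.0185). It was at 3.57 in untreated cells and at 4.19, 4.27, 4.18, 5.68 and 8.18 at the later times, at least 22.9-fold higher at 72 h. Its untreated value lay below the filter, and all 5 ATRA values lay above it, so TFEC passed the filter only through the ATRA arrays.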

How the data were processed

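The 6 Affymetrix arrays were deposited as log2 probe set values, which the authors made with RMA per the submitters' processing notes. The sources used here name neither an RMA version nor a genome build. RMA equalises the arrays' distributions and so hides a change shared by most transcripts. The number of arrays limits the precision. Groups follow the labelled times.

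Platform annotation gave 1 gene to 41091 non-control probe sets of 54675, and symbols were updated through Entrez identifiers. Slopes over time order (0 to 5) were fitted to all 13594 kept genes by limma 3.58.1 (R 4.3.3), using lmFit and then eBayes with trend, and a slope was called when its p, adjusted by Benjamini-Hochberg over all of them, was under 0.05. Tested on simulated data for 13594 genes, this found 54 of 100 slopes of 0.3 and 93 of 100 slopes of 0.6, with 8 false calls. The simulated noise was independent between genes and held no shift shared by an array. The 8 therefore do not measure the rate of false calls in these data. Differences between single arrays have no p-value. Where 1 end lay below 3.66, that level replaced it and the fold is a lower bound.

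Members and lists were chosen with earlier results of these data known. By rule, values on all 6 arrays are given for members with a call or a 2-fold difference, and from each further list up to 4 such genes with the largest 72 h difference are named. NRBF2, WDR45, EI24, VPS41, LAMTOR2, LAMP1, DDIT4, MAP1LC3A, MAP1LC3B2, MAP1LC3C and the array values of other members fall outside that rule. They were chosen after their values were seen. Alternatives were cyclic loess, shifts on spiked controls, other probe set rules and filters, leaving out arrays, bioC covariates, time in hours, other folds and a 4 h baseline.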

Additional observations from a re-analysis of the deposited data

How the results depend on the processing

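Members with a rising trend numbered 7 as reported. They were 4 with the shift on all hybridisation controls, 4 with the shift without bioC, 4 with the bioC level as a covariate, 2 with the 0 and 12 h arrays set against the others (a covariate chosen after seeing the data), and 1 within the 4, 24, 48 and 72 h arrays. Leaving out each array in turn gave 2 to 6, the lowest without the 72 h array, and 0 falling members each time. Members with a falling trend were 5 with the shift without bioC (ULK1, PIK3R4, WIPI2, ATG2B and ATG16L1). At 72 h higher members were 17 and 4 with these shifts, 13 at 1.5-fold and 4 at 3-fold. Lower members, 2 as reported, were 0 with cyclic loess, the shift on all controls, 3-fold and the 4 h array as baseline, 1 with the mean of all probe sets and 4 with the shift without bioC. The members' median at 72 h, 0.32 as reported, was 0.59 with cyclic loess, 0.98 with the shift on all controls and -0.24 with the shift without bioC. The shifts add or subtract the same amount for every gene of an array, other folds change the count by construction, and the cause of the other changes was not tested. No slope of the 7 rising members changed sign in the 17 settings. Other filters, and leaving out x_at probe sets, left each of these slopes as it was, so those settings could not change a sign. The calls were lost in 0 of them for ATG2A, 3 for NBR1, 3 for WIPI1, 5 for ATG7, 6 for TFE3, 8 for GABARAP and 10 for SQSTM1. No paired analysis was possible because each time has 1 array. Signal near the filter limits WIPI1 before 48 h and OPTN throughout.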
